A study of Mus musculus with 3 samples.

Results

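The 57 chromatin regulators described here were chosen by name, as genes whose products set or read histone marks, remodel nucleosomes, methylate DNA or fold chromatin, and many of which are mutated in human syndromes with a changed face. All 57 were found among the 55401 genes of the count tables through their GENCODE mouse gene names. Their counts come from bulk RNA-Seq of maxillary processes, the paired swellings that form the upper jaw, taken at E10.5. All 3 libraries had the genotype *Wnt1cre; Rosa26Dlx2/-* (OE), in which Cre made in the *Wnt1* lineage removes a stop cassette so that neural crest-derived cells express *Dlx2* with a 3xFlag tag from the *Rosa26* locus under the CAG promoter. Ectoderm, endothelium and blood in the dissected tissue lie outside that lineage. The protocol of the records names the same genotype for the dams. The paper instead describes mating *Wnt1cre* mice with carriers of the *Rosa26* cassette, so the genotype of the dams is uncertain. The labels speak of independent RNA samples, and whether each came from 1 embryo or from several is not given in the sources used here, so the spread between libraries may be biological or technical. Wild-type libraries were not analysed here, and nothing below is a difference between genotypes.

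Chromatin regulators of these families act in large complexes. Polycomb complexes keep developmental genes silent by methylating histone H3 at lysine 27 and ubiquitinating H2A, while Trithorax-type methyltransferases, acetyltransferases and the BAF remodeller (the mammalian SWI/SNF complex) keep genes open. Cohesin, loaded by NIPBL and halted by CTCF, folds chromatin into loops. Neural crest cells are sensitive to the dose of many of these genes. Loss of a single copy of *CHD7* causes CHARGE syndrome, of *KMT2D* Kabuki syndrome, of *CREBBP* or *EP300* Rubinstein-Taybi syndrome, of *NSD1* Sotos syndrome, of *ANKRD11* KBG syndrome and of *NIPBL* Cornelia de Lange syndrome.

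The libraries, numbered replicates 1 to 3 in the order of their records, had 35351031 to 40057435 counts on genes. *Dlx2* was at 235, 201 and 183 CPM in replicates 1, 2 and 3, where CPM are counts per 1000000 counts on genes after TMM scaling. The libraries differed from one another in several ways. Facial mesenchyme genes were present in all 3, and 10 such genes summed to 1630, 1769 and 1833 CPM. The 9 neuron genes summed to 273, 24.3 and 35.9 CPM, and all of them were highest in replicate 1. The 7 eye and forebrain genes summed to 30.0, 165 and 156 CPM and were all lowest in replicate 1. The 6 pigment genes summed to 2.49, 12.9 and 98.2 CPM, and *Tyr* and *Tyrp1* were at 0 counts in replicate 1, which allows up to 0.0777 CPM (3 counts, counting error only). Glial genes summed to 98.2, 25.2 and 26.4 CPM, epithelial genes to 373, 242 and 235, endothelial genes to 292, 325 and 241 and erythroid genes to 2129, 3984 and 4914. *Xist* was at 671 CPM in replicate 1 and at 0.309 and 0.557 CPM in replicates 2 and 3. In replicate 3 genes with long exons were low. The median log2 difference of replicate 3 from the mean of the other 2 was 0.34 for genes with up to 4000 exonic bases and -0.56 for genes with more than 8000. In such bulk tissue, fewer cells of a type and less RNA per cell cannot be told apart.

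Every chromatin regulator was expressed. The lowest count in any library was 136 and the highest 33071, so all 57 passed a mean count of 10. Levels between genes were compared as CPM per kilobase of exonic length. The median over the members was 12.3 CPM per kb, against 4.69 over the 14105 protein-coding genes that passed the same limit, and 47 of the 57 lay above that second median. Among all 21897 protein-coding genes, 39 members ranked in the upper quartile. Without replicate 3 the members' median was 14.4 CPM per kb. *Smarca4*, the BAF ATPase also called BRG1, was highest at 113 ± 10.6 CPM per kb (SD, n = 3), rank 360 among protein-coding genes. *Chd4*, the remodelling ATPase of the NuRD corepressor, followed at 105 ± 2.85, a difference smaller than the SD of *Smarca4*. *Ehmt2*, which methylates H3 at lysine 9, was at 84.1 ± 18.2, the deacetylase *Hdac2* at 77.1 ± 2.36 and the BAF subunit *Smarce1* at 73.2 ± 7.25, and the latter 2 lay within 1 SD of *Ehmt2*. At the other end stood *Kmt2c*, an H3 lysine 4 methyltransferase of enhancers, at 0.727 ± 0.496 CPM per kb (rank 11156), and the 5-methylcytosine oxidases *Tet2* and *Tet1* at 1.03 ± 0.341 and 1.29 ± 0.476.

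**Figure D1:**
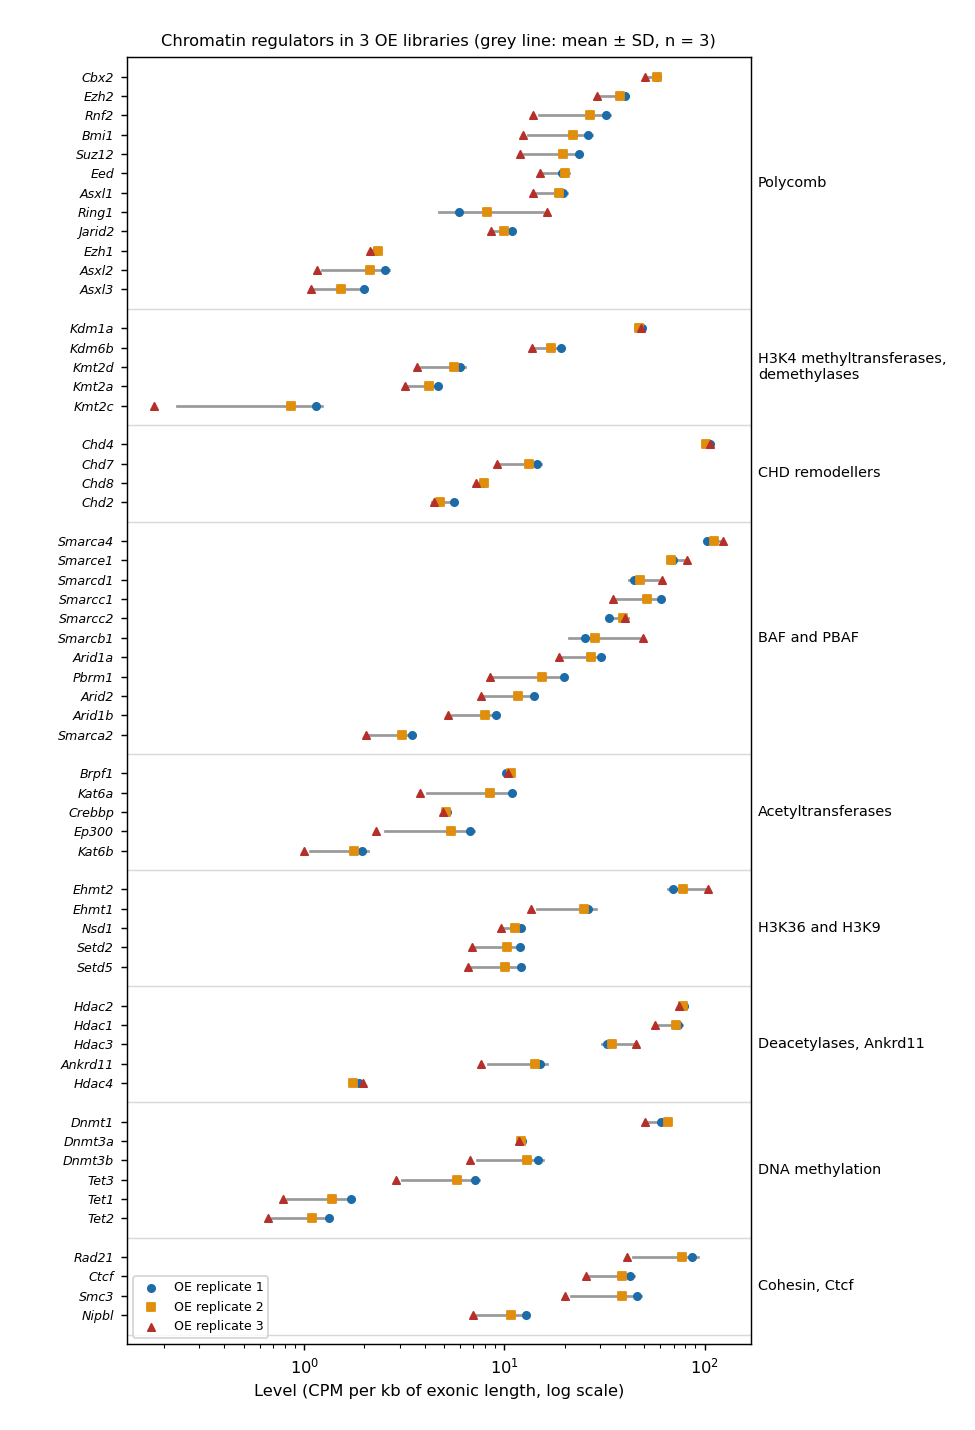
Level of each chromatin regulator in CPM per kb of exonic length (log axis), by role. Points are the 3 OE replicates and the grey line is the mean ± SD (n = 3). Mean levels run from 0.727 CPM per kb for Kmt2c to 113 for Smarca4, and the triangle of replicate 3 lies to the left for 45 of 57 genes.

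The 3 libraries differed beyond counting noise for 52 of the 57 members (chi-square test of the counts against the scaled library sizes, 2 degrees of freedom, at 0.05 after Benjamini-Hochberg adjustment over 17115 genes). Of all genes tested, 81.5% did so, and the members' counts are high, so this number says little about them. The test compares libraries with sampling noise and not conditions. The members that did not pass this chi-square test were *Ezh1*, *Kdm1a*, *Crebbp*, *Brpf1* and *Dnmt3a*, with adjusted p from 0.0781 to 0.247. By size, the highest library was more than 1.5 times the lowest for 32 members, against 62.2% of all genes and 50.8% of the 8679 genes whose counts averaged 500 or more, a limit set after the values were seen. The median biological coefficient of variation (the relative SD between replicates beyond counting error, edgeR tagwise estimate) was 0.267 for the members and 0.339 for all genes. No such value was computed over genes with counts as high as those of the members, here or without replicate 3.

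Most of that spread came with replicate 3. Without it, no member differed by more than 1.5 times between replicates 1 and 2, against 16.7% of all genes and 2.43% of those averaging 500 counts or more, and the median coefficient of variation fell to 0.113, against 0.209 for all genes. Counting noise was still exceeded for 45 members, against 48.8% of all genes. Replicate 3 was the lowest library for 45 of the 57 members, against 45.6% of all genes, replicate 1 for 8 (39.3%) and replicate 2 for 4 (15.1%). Replicate 1 was the highest for 43 members, against 39.6% of all genes, and replicate 2 for 5 (17.2%). The order from replicate 1 through replicate 2 to replicate 3, from high to low, held for 41 members and for 34% of all genes. The median log2 difference of replicate 3 from the mean of the others was -0.60 over the members and -0.03 over all genes. Replicate 3 was highest for 9 members, *Ring1*, *Smarca4*, *Smarcb1*, *Smarcc2*, *Smarcd1*, *Smarce1*, *Ehmt2*, *Hdac3* and *Hdac4*, against 43.2% of all genes. Under upper-quartile scaling this split was 39 lowest (39.5% of all genes) and 16 highest, and under library size alone 48 (51.6%) and 7.

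Length moved with this pattern. The median exonic length was 8116 bases for the members and 4460 for protein-coding genes, and 53 members exceeded 4000. Of the 30 members over 8000 exonic bases, 28 were lowest in replicate 3, beside 77.4% of all genes of that length. Of the 13 members over 4000 and up to 6000 bases 8 were lowest there, beside 52% of all genes. Of the 10 members over 6000 and up to 8000 bases 6 were, beside 64.9%, and of the 4 up to 4000 bases 3 were, beside 29.1%. Across the 57 members Spearman's rho between exonic length and the log2 difference of replicate 3 was -0.30, and it was 0.43 with the GC content of the longest transcript. Members share their libraries, so neither value carries a p. Removal of a trend on length and GC content, fitted as a smooth curve over all genes, left 35 members lowest in replicate 3 (41.8% of all genes) and a median log2 difference of -0.23. The number of members over 1.5-fold then fell to 17, beside 47.2% of all genes. With the trend removed, 9 members that had been below the other libraries in replicate 3 lay above them, *Ezh1*, *Ezh2*, *Jarid2*, *Chd2*, *Chd8*, *Crebbp*, *Nsd1*, *Hdac2* and *Dnmt3a*. The part of pigment, neuron, eye, epithelial or blood cells in these differences was not tested.

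**Figure D2:**
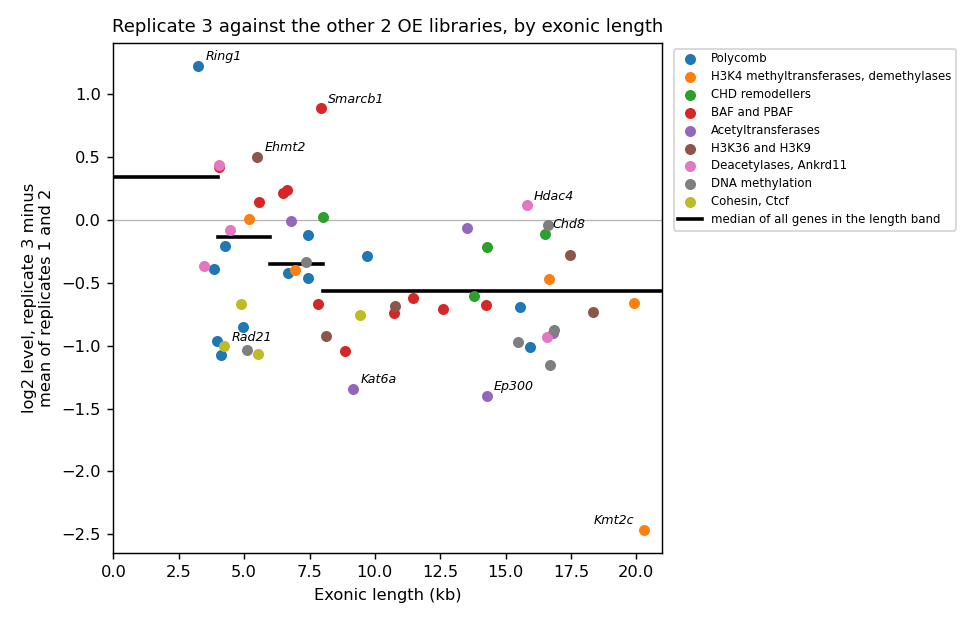
Log2 level of each chromatin regulator in OE replicate 3 minus the mean of replicates 1 and 2, against exonic length in kb. Points are genes coloured by role and black bars the median of all genes in each length band (0.34 up to 4 kb, -0.56 over 8 kb). Kmt2c lies at -2.46 and Ring1 at 1.22.

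The members' promoters were richer in CpG dinucleotides, at the median, than those of all genes. RefSeq promoter entries on GRCm38.p6 (mm10), each from 250 bases before to 50 after a start site, were at hand for 44 of the 57 members, with 53 entries. Their median GC content was 69.7%, against 52.7% over 32841 entries of all genes, and their median number of CpG dinucleotides was 32 against 7. The spread was wide, from 1 CpG and 39.7% GC in the *Setd5* entry to 57 CpG and 81.3% GC in that of *Tet2*. An observed to expected CpG ratio over 0.6 together with a GC content over 50% was met by 48 of the 53, against 33.3% of all entries. On either strand, CACGTG, an E-box bound by MYC and MAX proteins, stood in 6 of 53 (11.3%, against 7.15% of all entries), in the promoters of *Asxl2*, *Bmi1*, *Dnmt3a*, *Pbrm1* and in both entries of *Ehmt2*. TAATTA, a core bound by many homeodomain proteins, was in none, against 5.29%. TATAAA was in 1 of 53, against 13.6%. TAATTA and TATAAA hold only A and T, while the members' entries were richer in GC. The part of base composition in these shares was not tested. CCGGAAG, the letters of an ETS site, was in 5 (9.43%, against 8.86%), and CCAAT in 14 (26.4%, against 37.4%). To show the composition, 100 bases that end 20 bases before the start site are given 5′ to 3′ for *Kmt2c* (chr5:25498804-25498903, minus strand) and *Rnf2* (chr1:151501012-151501111, minus strand), which, among members with 1 entry and a stretch outside the annotated gene, were lowest in replicate 3 against the other libraries, and for *Smarcb1* (chr10:75921635-75921734, minus strand) and *Ring1* (chr17:34024701-34024800, minus strand), which were highest there. Capitals mark CpG dinucleotides, of which the stretches hold 20, 12, 8 and 17.
Kmt2c: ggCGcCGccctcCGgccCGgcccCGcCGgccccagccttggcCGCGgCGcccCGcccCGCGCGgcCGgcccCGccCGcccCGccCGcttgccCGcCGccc
Rnf2: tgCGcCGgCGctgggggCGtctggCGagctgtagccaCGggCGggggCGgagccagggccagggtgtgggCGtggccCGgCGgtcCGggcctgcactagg
Smarcb1: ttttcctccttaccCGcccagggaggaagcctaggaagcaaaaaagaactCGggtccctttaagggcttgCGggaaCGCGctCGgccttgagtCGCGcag
Ring1: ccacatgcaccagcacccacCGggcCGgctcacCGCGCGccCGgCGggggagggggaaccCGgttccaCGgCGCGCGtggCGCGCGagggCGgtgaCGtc

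Among Polycomb genes, the H3 lysine 27 methyltransferase *Ezh2*, mutated in Weaver syndrome, far exceeded its relative *Ezh1*. Per kb, *Ezh2* was at 39.9, 37.8 and 28.9 CPM in replicates 1, 2 and 3 and *Ezh1* at 2.28, 2.34 and 2.12. The ratio was 17.5, 16.2 and 13.6 within the 3 libraries. Both *Eed* (19.4, 20.1 and 15.1 CPM per kb) and *Suz12* (23.5, 19.7 and 11.9), the core partners of either enzyme, were between those levels and lowest in replicate 3. *Jarid2*, an accessory subunit, was at 9.80 ± 1.19 CPM per kb (SD, n = 3). Of the class of 12, 11 were lowest in replicate 3 (45.6% of all genes) and 11 exceeded counting noise (81.5%). With the length and GC trend removed, 7 were lowest (41.8% of all genes) and 4 highest in replicate 3.

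The catalytic subunits of PRC1, which ubiquitinate H2A, moved in opposite directions. *Ring1* (ENSMUSG00000024325, chromosome 17, 34020792 to 34024680, minus strand) was at 19.3, 26.7 and 53.1 CPM in replicates 1, 2 and 3. *Rnf2* (chromosome 1, 151458004 to 151500955, minus strand) was at 133, 111 and 57.5 CPM. Per kb, *Rnf2* was 5.41 and 3.25 times *Ring1* in replicates 1 and 2 and 0.851 times in replicate 3, so with exonic length the order of the pair was different in the library with the lowest *Rnf2*. With coding length *Rnf2* was the higher in all 3 libraries, by 0.17 on the log2 scale in replicate 3 against 2.84 and 2.10 in replicates 1 and 2. A ratio within a library does not depend on the scaling of libraries, but the length and GC trend was not removed from these ratios. *Ring1* has the shortest exonic length of all members, 3243 bases, and *Rnf2* has 4127. After removal of the length and GC trend, the log2 difference of replicate 3 from the others was still 0.84 for *Ring1* and -0.62 for *Rnf2*. *Bmi1*, a PRC1 subunit that stimulates the ligases, was at 104, 87.9 and 49.1 CPM. *Cbx2*, which binds methylated H3 and compacts chromatin, had the highest Polycomb level, at 57.9, 57.9 and 50.1 CPM per kb. Its highest library was 1.16 times the lowest, or 1.43 times with the trend removed. *Asxl1*, partner of the H2A deubiquitinase BAP1 and the gene of Bohring-Opitz syndrome, was at 17.4 ± 3.09 CPM per kb, above *Asxl2* at 1.94 ± 0.710 and *Asxl3* at 1.53 ± 0.456. The latter 2 differed by less than the SD of *Asxl2*.

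**Figure D3:**
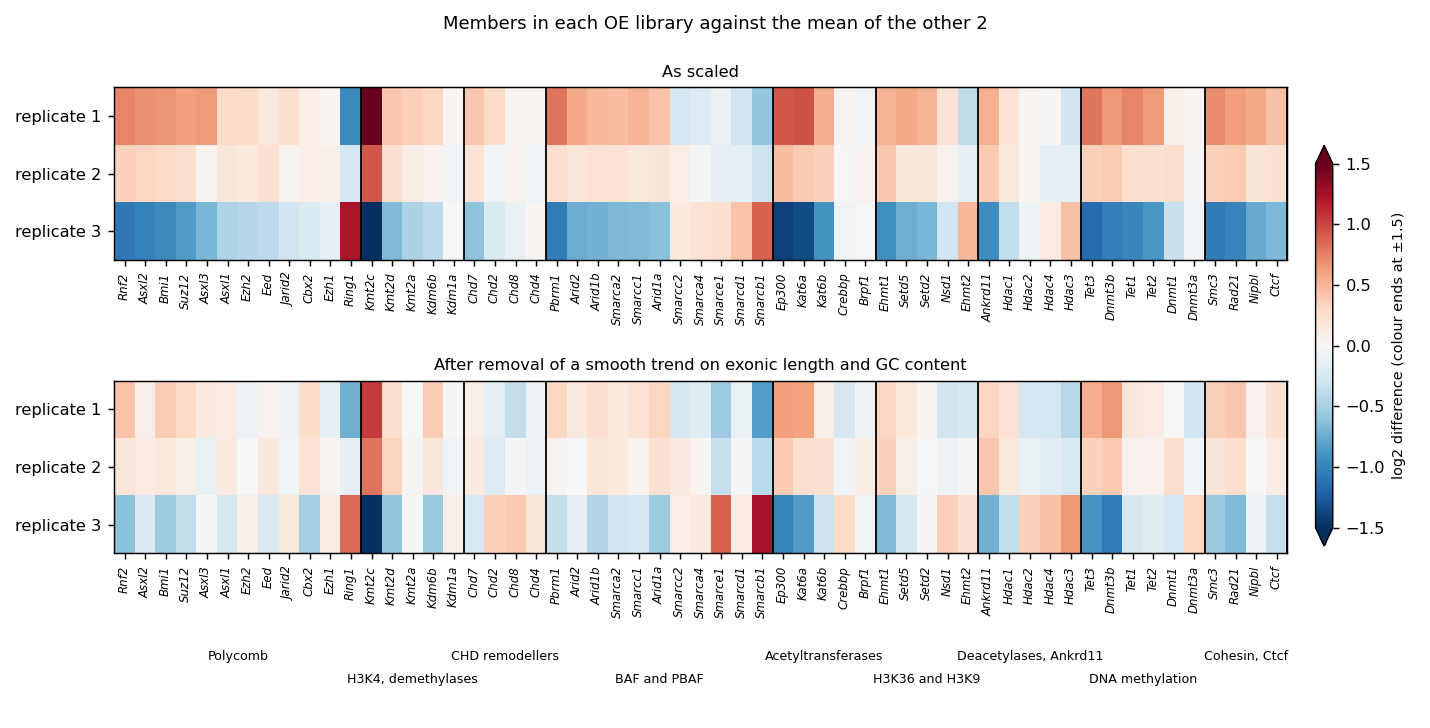
Log2 level of each chromatin regulator in an OE library minus the mean of the other 2, as scaled (top) and with the trend on length and GC content removed (bottom). Columns are genes by role and rows are replicates. Blue in replicate 3 covers 46 genes in the upper map, while Ring1 (1.22) and Smarcb1 (0.89) are red.

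Of the methyltransferases of H3 lysine 4, *Kmt2c* varied more than any other member. *Kmt2c* (ENSMUSG00000038056, chromosome 5, 25271798 to 25498783, minus strand) had 894, 623 and 136 counts, or 23.2, 17.5 and 3.61 CPM. The highest library was 6.42 times the lowest, and 3.83 times after the length and GC trend was removed. Its exonic length of 20291 bases is the longest among the members. *Kmt2d*, a close relative of nearly the same length (19931 bases), was at 120, 112 and 73.1 CPM, a ratio of 1.64. *Kmt2d* therefore exceeded *Kmt2c* per kb 5.27, 6.49 and 20.6 times in replicates 1, 2 and 3. *Kmt2a* was at 4.02 ± 0.757 CPM per kb (SD, n = 3). Of the demethylases, *Kdm1a*, which acts on H3 lysine 4, was steady at 253, 245 and 250 CPM, with an adjusted p of 0.0781. *Kdm6b*, which removes the Polycomb mark, was at 134, 119 and 95.8 CPM.

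The CHD remodellers spanned a wide range of levels. *Chd4* was at 857, 814 and 849 CPM, so that the highest library was 1.05 times the lowest. *Chd7*, the CHARGE gene, was at 14.5, 13.3 and 9.16 CPM per kb and *Chd8* at 7.80, 7.87 and 7.26. With exonic length *Chd8* was lower than *Chd7* in 3 of 3 libraries, at 0.536 to 0.792 times its level. With coding length it was lower in replicates 1 and 2 and higher in replicate 3, by 0.13 on the log2 scale, and with the longest transcript likewise. *Chd2* was at 4.96 ± 0.590 CPM per kb, and 19.3% of its exonic bases are shared with other annotated genes. The log2 difference of *Chd7* in replicate 3 was -0.60, and -0.23 after removal of the trend.

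Of the 11 BAF and PBAF subunits, 6 were lowest and 5 highest in replicate 3, near the shares of all genes (45.6% and 43.2%). Lowest there were the DNA-binding and bromodomain subunits *Arid1a*, *Arid1b*, *Arid2* and *Pbrm1*, the scaffold *Smarcc1* and the ATPase *Smarca2*. Highest there were the ATPase *Smarca4*, the scaffold *Smarcc2*, and the small core subunits *Smarcb1*, *Smarcd1* and *Smarce1*. All 11 exceeded counting noise (81.5% of all genes). With the length and GC trend removed, the first 6 were still lowest in replicate 3 (41.8% of all genes) and 4 of the other 5 highest. *Smarcb1* (ENSMUSG00000000902, chromosome 10, 75896769 to 75921617, minus strand) was at 199, 225 and 392 CPM, and its log2 difference in replicate 3 was 0.89, or 1.24 with the trend removed. *Smarcd1* was at 179, 191 and 248 CPM. *Smarce1* was at 464, 454 and 542 CPM, and its ratio of 1.19 became 1.94 with the trend removed. On the other side, *Pbrm1*, the polybromo subunit of PBAF, was at 175, 136 and 74.8 CPM, a ratio of 2.35, or 1.36 with the trend removed. *Arid2*, also of PBAF, was at 151, 126 and 82.4 CPM, a ratio of 1.83, or 1.13 with the trend removed. *Arid1a* was at 348, 312 and 214 CPM and *Arid1b*, the Coffin-Siris gene, at 114, 101 and 65.8, so both were lower in replicate 3 while their ratio per kb stayed at 3.35, 3.39 and 3.57. This was the smallest spread of any pair, with an SD of 0.05 on the log2 scale. The 6 subunits lowest in replicate 3 have exonic lengths of 7832 to 14269 bases, and the 5 highest there have 4026 to 7930.

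Of the alternative BAF ATPases, *Smarca4* was at 103, 111 and 124 CPM per kb and *Smarca2* at 3.45, 3.08 and 2.03. The ratio was 29.9, 36.2 and 61.1, and the direction was the same with coding length (19.0 times) or the longest transcript (17.04 times) in place of exonic length. The scaffold pair changed order with exonic length. *Smarcc1* was at 60.3, 51.3 and 35.0 CPM per kb and *Smarcc2* at 33.5, 39.3 and 40.1, so that *Smarcc1* was the higher in replicates 1 and 2 and the lower in replicate 3. With coding length *Smarcc1* was the higher in every library, by 1.49, 1.03 and 0.45 on the log2 scale.

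After *Kmt2c*, the widest ratios between libraries as scaled were those of the acetyltransferases *Ep300* and *Kat6a*. With the trend removed, *Smarcb1* (2.61), *Dnmt3b* (2.20), *Ep300* (2.11) and *Ring1* (2.06) followed *Kmt2c*, ahead of *Kat6a* (1.95). *Ep300* was at 95.9, 77.3 and 32.6 CPM in replicates 1, 2 and 3, a ratio of 2.94. Its partner gene in Rubinstein-Taybi syndrome, *Crebbp*, of similar exonic length (13540 bases, against 14273), stayed at 70.2, 68.9 and 66.6 CPM, with an adjusted p of 0.188. Per kb, *Crebbp* was 0.772, 0.938 and 2.15 times *Ep300*, another pair whose order differed in replicate 3, and it did so with every length used. *Kat6a* was at 101, 77.4 and 34.8 CPM and *Kat6b* at 32.6, 30.0 and 16.8. *Kat6a* exceeded *Kat6b* per kb in every library, 3.81 to 5.65 times, or 2.38 times on average with coding length and 2.15 times with the longest transcript. *Brpf1*, the scaffold that joins both to chromatin, did not follow them and was at 69.4, 73.6 and 71.0 CPM, with an adjusted p of 0.119.

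The writers of H3 lysine 9 dimethylation behaved differently from each other. *Ehmt2* was at 382, 429 and 573 CPM and *Ehmt1*, the Kleefstra syndrome gene, at 213, 203 and 110. The products form a heterodimer. Per kb the ratio of *Ehmt2* to *Ehmt1* was 2.65, 3.13 and 7.71. Of the genes linked to H3 lysine 36, *Nsd1*, the Sotos gene, was at 10.98 ± 1.27 CPM per kb (SD, n = 3), *Setd2* at 9.73 ± 2.60 and *Setd5* at 9.57 ± 2.76, and these 3 levels differed by less than the SD of *Setd2*. All were lowest in replicate 3, as were 77.4% of all genes over 8000 exonic bases. With the trend removed, *Nsd1* was highest there, at a log2 difference of 0.36, and the ratio of *Setd2* fell from 1.74 to 1.03.

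Class I deacetylases were abundant, and their ratios between libraries were 1.31 for *Hdac1*, 1.06 for *Hdac2* and 1.39 for *Hdac3*. With the trend removed these were 1.31, 1.33 and 1.64. *Hdac2* was at 352, 350 and 333 CPM and *Hdac1* at 253, 248 and 194. Per kb, *Hdac1* was 0.934, 0.920 and 0.757 times *Hdac2*, an order that turned in replicates 1 and 2 when the longest transcript was used as length (1.06 times on average). *Hdac3*, the catalytic subunit of the NCoR corepressor, was highest in replicate 3, at 132, 140 and 184 CPM. *Hdac4*, a class II enzyme that restrains chondrocyte maturation, was at 29.7, 27.8 and 31.2 CPM, with 22.4% of exonic bases shared with other genes. *Ankrd11*, which recruits deacetylases and is the KBG gene, was at 251, 236 and 127 CPM, a ratio of 1.97, and its log2 difference in replicate 3 was -0.93, or -0.72 with the trend removed.

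In DNA methylation, the maintenance enzyme *Dnmt1* had the highest level, at 60.6, 66.0 and 50.2 CPM per kb. The de novo enzymes differed in spread. *Dnmt3a* was the steadiest of all 57 members at 203, 202 and 197 CPM, a ratio of 1.03, with an adjusted p of 0.145. *Dnmt3b* was at 75.3, 66.1 and 34.5 CPM, a ratio of 2.18. Removal of the trend left the *Dnmt3b* ratio at 2.20 and brought that of *Dnmt3a* to 1.32. With exonic length the order of the pair was therefore different in replicate 3, with *Dnmt3a* at 0.829, 0.936 and 1.75 times *Dnmt3b*. With coding length *Dnmt3a* was the higher in every library, 3.29 times on average, since most of the exonic length of *Dnmt3a* (16642 bases) is not coding (2833 bases). The 3 *Tet* genes were lowest in replicate 3, as were 77.4% of all genes over 8000 exonic bases. *Tet3* was at 119, 96.9 and 48.1 CPM, *Tet1* at 26.6, 21.3 and 12.1 and *Tet2* at 22.4, 18.5 and 11.1. Their ratios of 2.47, 2.20 and 2.02 became 1.93, 1.21 and 1.15 with the trend removed. Per kb, *Tet1* was 0.242, 0.237 and 0.272 times *Tet3*, while *Tet1* and *Tet2* differed 1.25 times in one direction with exonic length and 1.37 times in the other with the longest transcript.

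The cohesin genes and *Ctcf* were all highest in replicate 1 and lowest in replicate 3, the order held by 41 of the 57 members and 34% of all genes. The kleisin *Rad21* was at 366, 327 and 172 CPM, the ring subunit *Smc3* at 254, 215 and 112, *Ctcf* at 207, 187 and 124 and the loader *Nipbl* at 120, 102 and 65.4. Ratios ran from 1.67 for *Ctcf* to 2.28 for *Smc3*. *Rad21*, *Ctcf* and *Smc3* have exonic lengths of 4232, 4860 and 5541 bases, a range in which the median log2 difference of all genes in replicate 3 was -0.13, whereas these genes were at -1.004, -0.67 and -1.07. With the trend removed the 4 were still lowest in replicate 3 (41.8% of all genes), with ratios of 1.64 (*Rad21*), 1.53 (*Smc3*), 1.31 (*Ctcf*) and 1.07 (*Nipbl*).

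Of 16 pairs of related members, 12 had the same order in all 3 libraries, and the 4 that did not (*Rnf2* and *Ring1*, *Smarcc1* and *Smarcc2*, *Crebbp* and *Ep300*, *Dnmt3a* and *Dnmt3b*) had 1 order in replicates 1 and 2 and the other in replicate 3. With coding length 14 pairs kept 1 order and with the longest transcript 11, and of these 4 pairs *Crebbp* and *Ep300* alone switched in replicate 3 under every length. With 3 libraries a two-sided exact sign-flip test cannot give a p below 0.25, so none was run. For 9 pairs the same gene was the higher in every library whichever length was used. The length and GC trend was not removed from the pair ratios, and its part in the switches of order was not tested.

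**Figure D4:**
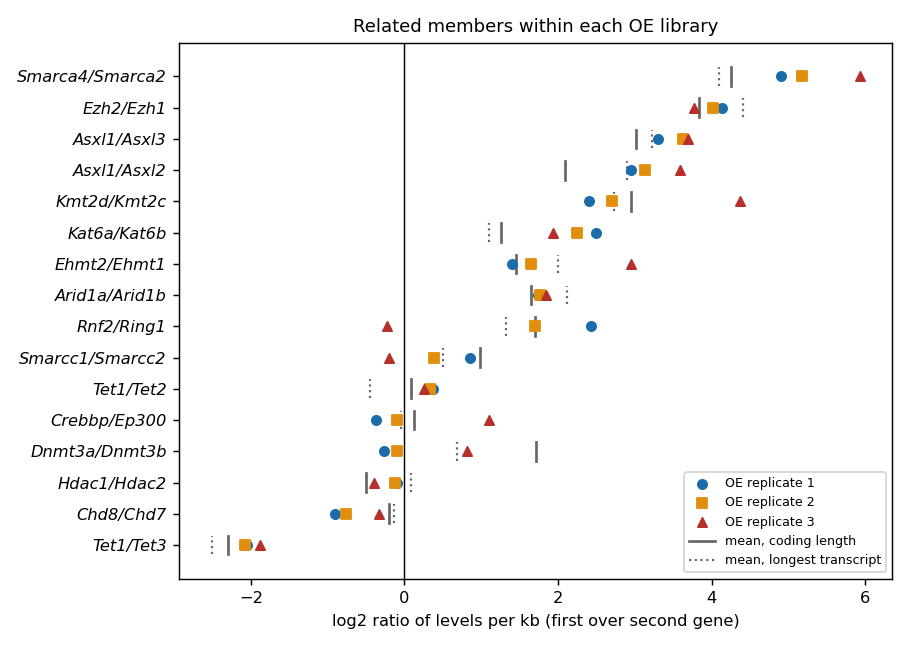
Log2 ratio of the levels per kb of 2 related genes within each OE library (points), with the mean ratio for coding length (solid tick) and for the longest transcript (dotted tick). The ratios run from below 0 for Tet1/Tet3 to 5.93 for Smarca4/Smarca2 in replicate 3, and the points of Rnf2/Ring1, Smarcc1/Smarcc2, Crebbp/Ep300 and Dnmt3a/Dnmt3b lie on both sides of 0.

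Further genes of the same complexes also lay on both sides. Of 98 listed beside the members, 96 had a mean count of at least 10 and 91 exceeded counting noise, against 81.5% of all genes. Of these, 58 were lowest in replicate 3, 28 in replicate 1 and 5 in replicate 2, against 45.6%, 39.3% and 15.1% of all genes, shares that also stand behind each count below. With the length and GC trend removed, 46 of the 91 were lowest in replicate 3, beside 41.8% of all genes. Among other cohesin genes 9 of 10 were called, as scaled all lowest in replicate 3, and 6 of the 9 with the trend removed. *Stag1* was at 120, 97.3 and 55.6 CPM, a ratio of 2.15, or 1.18 with the trend removed. The acetyltransferase *Esco1* was at 23.0, 15.6 and 7.83 CPM. Of 22 other Polycomb genes 20 were called, 12 lowest in replicate 3, or 8 with the trend removed. *Rybp*, a subunit of variant PRC1, was at 46.5, 35.6 and 11.9 CPM, while *Phf1*, an accessory of PRC2 with 39.3% of exonic bases shared with other genes, was at 11.7, 14.9 and 29.9. In the H3 lysine 4 group all 15 were called, 10 lowest in replicate 3, with *Kmt2e* at 66.4, 53.4 and 21.5 CPM. Of 12 other BAF genes 10 were called, 6 lowest in replicate 3, or 3 with the trend removed, and *Bcl7c* was at 36.3, 51.2 and 132 CPM and *Bcl7b* at 24.3, 31.1 and 43.5. All 11 other acetylation genes were called, 7 lowest in replicate 3, among them *Brd1* (128, 111 and 66.0 CPM) and *Kansl1* (101, 93.1 and 52.5). All 16 corepressor genes were called, 10 lowest in replicate 3, with *Ncor1* at 163, 133 and 76.0 CPM against *Mbd3*, a NuRD subunit, at 360, 469 and 892. Of 7 further DNA methylation genes 6 were called, 4 lowest in replicate 3, with *Mbd4* at 23.6, 22.5 and 10.3 CPM and *Zfp57* at 78.8, 89.8 and 131.

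Of 5 BAF subunits kept in a separate neuronal list, *Actl6b*, the actin-like subunit, was near the floor of 3 counts, with 11, 0 and 4 counts. *Dpf3* was at 0.725, 0.955 and 1.49 CPM. *Dpf1* was at 12.1, 17.8 and 28.9 CPM, *Smarcd3*, with 48.2% of exonic bases shared, at 11.97, 16.7 and 31.7 and *Ss18l1* at 15.3, 12.9 and 15.1. Of the 5, *Dpf1*, *Dpf3* and *Smarcd3* were highest in replicate 3 (43.2% of all genes), and *Actl6b* and *Ss18l1* in replicate 1 (39.6%).

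A list of 9 chromatin genes on the X chromosome included *Kdm6a*, *Kdm5c*, *Smc1a* and *Hdac8*, already counted in the lists above. All 9 exceeded counting noise (81.5% of all genes) and were lowest in replicate 3 (45.6%), or 7 of the 9 with the trend removed (41.8%). As scaled, *Stag2*, *Rbbp7* and *Smarca1*, X-linked genes of the lists above named after their values were seen, were also lowest there. *Kdm6a*, the second Kabuki gene, which removes H3 lysine 27 methylation and escapes X inactivation, was at 62.2, 32.7 and 17.6 CPM. *Kdm5c*, which also escapes, was at 227, 159 and 113 CPM, and *Atrx* at 202, 171 and 79.3. Their Y-linked relatives *Uty* (0, 15.5 and 8.49 CPM) and *Kdm5d* (0, 44.8 and 21.4) had no counts in replicate 1, which allows up to 0.0777 CPM. Female tissue carries *Xist* and no Y-linked RNA, as in replicate 1, and male tissue the reverse, as in the other 2. With 1 library of the first kind, sex cannot be told apart from other differences of replicate 1.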

How the data were processed

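Paired-end reads from 3 OE libraries were mapped to mm10 by the authors with STAR 2.7.3a. The deposited values are raw counts per gene, whole numbers without normalization, counted per the labels with HTSeq 0.12.4. The strand setting and annotation release are not given in the sources used here, so reads of overlapping antisense genes cannot be told apart. Rows that name no gene held 14.2% to 16.4% of counted reads and were left out. Names, exonic and coding lengths and shared bases came from GENCODE M21 (GRCm38), where exonic length is the union of all exons, so rare long transcripts lower the levels per kb. Counts were scaled with TMM factors in edgeR 4.0.16 (1.06, 1.01 and 0.94), and log2 values used a prior count of 2. Genes averaging 10 counts or more were tested. The length and GC trend was fitted with mgcv 1.9.3, and DESeq2 1.42.0 gave alternative size factors and dispersions, in R 4.3.3. Steps were tested on simulated data. The members and gene lists, and the rule for the genes given in full (extremes of each role and of the ratio between libraries, and the 16 pairs), were chosen with earlier results of these data known.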

Additional observations from a re-analysis of the deposited data

How the results depend on the processing

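Of 342 alternative levels of single members, 330 stayed within 1 SD of the 3 libraries and 12 moved, all for members with a narrow spread when 1 replicate was left out. Of 40 alternative values of the summaries, 36 held. The number of members over 1.5-fold was 17 with the length and GC trend removed, and from 0 (without replicate 3) to 32 with a replicate left out. The median coefficient of variation ran from 0.113 to 0.362 with a replicate left out, lowest without replicate 3. The median member level was 25.2 CPM per kb of coding length, since coding length is shorter by construction. Of the pair ratios (log2), 5 of 80 alternatives reversed. *Crebbp*/*Ep300* (0.21) ran from -0.23 (without replicate 3) to 0.51 with a replicate left out and was -0.040 with the longest transcript. *Dnmt3a*/*Dnmt3b* (0.15) ran from -0.18 (without replicate 3) to 0.36 with a replicate left out. With the longest transcript, *Hdac1*/*Hdac2* went from -0.21 to 0.089 and *Tet1*/*Tet2* from 0.32 to -0.45. The cause was not tested. Another 18 ratios moved by more than 1 SD, all with another length. Library size alone shifted the median log2 difference of all genes in replicate 3 to -0.16 and upper-quartile scaling to 0.10, and the direction of 3 and 6 members near 0 turned with them. No paired analysis was possible because there is 1 group. With 3 libraries of 1 genotype, no value bears on a difference from wild type.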
